A study of Mus musculus with 67 samples.

Results

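Activated conventional T cells (Tconv) of the mouse hypothalamus were compared between 2 inbred strains, Balb/c and C57Bl/6J, by RNA sequencing. Of the 67 libraries in the series, 16 were chosen by their labels as activated Tconv of the hypothalamus, 8 from Balb/c and 8 from C57Bl/6J mice, with 4 libraries on the high-fat, high-sugar (HFHS) diet and 4 on standard diet (SD) in each strain. The cells were sorted as CD4+CD25-Foxp3GFP- T cells of the activated, CD44-high gate, and per the study's methods every library holds cells pooled from 5 mice, although the numbers in some pool labels span fewer or more than 5. All mice carried a GFP reporter allele of Foxp3, on the Balb/c or the C57Bl/6J background, and the HFHS diet began at 6 weeks of age; its duration for these libraries is not given in the sources used here. Sex went with strain, as only females were taken from Balb/c and only males from C57Bl/6J, and strain and sex cannot be told apart. Genes of chromosomes X and Y were therefore left out, and each difference is called strain-associated. Reads of both strains were quantified on transcripts of mm10, the genome of C57Bl/6J, and the effect of this on the levels in Balb/c was not tested.

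Activated Tconv have met antigen and carry much of the adhesion molecule CD44. In tissues such as the brain they stay for long periods, survey cells through their T-cell receptor and release cytokines such as interferon-gamma (Ifng). Inbred mouse strains carry different alleles and gene numbers in several immune gene families, above all in the major histocompatibility complex (MHC, H2 in the mouse), in the Ly6 surface proteins and in the interferon-induced Ifi200 and guanylate-binding protein families. Balb/c mice carry the d haplotype of H2 and C57Bl/6J mice the b haplotype, which differ in the class I and class II genes they hold.

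The libraries held 13196697 to 20538319 counts each. Levels are given in CPM, a gene's counts brought to a common library total after TMM scaling, and were compared within a gene and not between genes. The markers of T cells were high in all 16 libraries: Cd3e, a chain of the CD3 complex, lay between 2207 and 2746 CPM with a median of 2409 CPM in Balb/c and between 1683 and 2553 CPM with a median of 2301 CPM in C57Bl/6J libraries. Cd4 lay between 141 and 360 CPM in Balb/c libraries and between 148 and 752 CPM in C57Bl/6J libraries. Cd44 was present in every library at 104 to 204 CPM. Foxp3, the factor that defines regulatory T cells (Tregs), did not pass 13.9 CPM in any library.

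Markers of cells that the gate should leave out were mostly at or near 0. Tmem119, Csf1r and Trem2, which define microglia, were at 0 in all 16 libraries. The sums of the macrophage or monocyte, neuron, astrocyte, B-cell, neutrophil and erythroid markers did not pass 33.3 CPM in any library. Oligodendrocyte markers summed to 287 to 413 CPM in Balb/c and 224 to 551 CPM in C57Bl/6J libraries, 74.3% of it from Cnp, while Mag, Mobp, Cldn11 and Opalin were at 0 in all 16. Endothelial markers summed to at most 76.5 CPM, 98.7% of it from Pecam1, and the 10 Treg markers, led by Capg, to 812 to 1233 CPM in Balb/c and 714 to 1439 CPM in C57Bl/6J libraries. CD8 T-cell and NK-cell markers were present as well. Cd8a, absent from CD4 T cells, was between 57.8 and 268 CPM with a median of 128 CPM in Balb/c and between 0 and 327 CPM with a median of 56.9 CPM in C57Bl/6J libraries, and Cd8b1 between 76.4 and 393 CPM and between 8.74 and 296 CPM. In replicate 2 of C57Bl/6J, Cd8a and Cd4 were at 327 and 170 CPM on the HFHS diet and at 326 and 314 CPM on SD. They were at 268 and 199 CPM in replicate 2 of Balb/c on the HFHS diet. The 7 markers of this list summed to a median of 315 CPM in Balb/c and 184 CPM in C57Bl/6J libraries. Of the 5 tested, 0 were called, Klrb1c among them, at 0 to 9.85 CPM in Balb/c and 0.802 to 42.5 CPM in C57Bl/6J libraries. Ncr1, of NK cells, was not tested, at up to 54 CPM in Balb/c and at 0 in all C57Bl/6J libraries. Unequal content of such cells was not excluded, and the part of these markers in the results below was not tested. One library stood apart: in replicate 4 of C57Bl/6J on SD, the 10 most abundant genes took 6.04% of the counts against 8.54% to 9.92% in the others, Cd4 was at 752 CPM, and Cd3d at 553 CPM against 1095 to 1181 CPM in the other C57Bl/6J libraries.

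Of 10408 autosomal genes tested, 210 were strain-associated (2.02%; edgeR quasi-likelihood test, Benjamini-Hochberg adjusted p under 0.05, diet as a term). Levels were higher in Balb/c for 99 of them (0.951%) and higher in C57Bl/6J for 111 (1.07%). The median log2 fold change over all genes tested, Balb/c minus C57Bl/6J, was 0.01. Libraries of the strains did not overlap, 8 against 8, for 130 of the genes tested (1.25%), and 105 of these were among the 210 (1.01%). Differences higher in Balb/c had a median of 9.28-fold, and those higher in C57Bl/6J a median of 2.94-fold, values that stay the same with genes at 0 set to their lower bound. For 16 of the 210 genes, 10 higher in Balb/c and 6 higher in C57Bl/6J, the other strain's 8 libraries held 0 counts. Transcribed pseudogenes were called in 9 of 107 cases (8.41%), lncRNAs in 10 of 337 (2.97%) and protein-coding genes in 191 of 9958 (1.92%). With single libraries left out, between 165 genes (without replicate 1 of Balb/c on SD) and 243 genes (without replicate 4 of C57Bl/6J on SD) were called, and DESeq2 called 433 genes, 192 higher in Balb/c and 241 higher in C57Bl/6J.

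A group of genes was read in the libraries of 1 strain and at or near 0 in the other. Trim12a, a member of the TRIM5 group of antiviral restriction factors, was at 116 to 289 CPM with a median of 177 CPM in C57Bl/6J libraries and at 0 to 0.101 CPM in Balb/c libraries. Its 8 Balb/c libraries held 3 counts together against 25635 counts, a ratio of 8518 (95% exact interval 2914 to 41306, counting error only; log2 fold change -12.64, edgeR, Benjamini-Hochberg adjusted p = 2.8e-12), with a log2 fold change of -13.49 without replicate 4 of Balb/c on SD. Gbp2b, a guanylate-binding protein that attacks the vacuoles of intracellular microbes, had the opposite pattern, with 59.1 to 206 CPM in Balb/c and 0 to 0.168 CPM in C57Bl/6J libraries. Its log2 fold change was 11.04 (SE 0.54; edgeR, Benjamini-Hochberg adjusted p = 2.9e-10), and no library of either strain reached the range of the other. Coro2a, an actin-binding coronin, was at 50 to 204 CPM in C57Bl/6J and did not pass 0.258 CPM in Balb/c libraries, 4 counts against 13996. All 4 counts lay in replicate 3 of Balb/c on SD, and the log2 fold change of -11.45 was -13.73 without it, a fitted value over a group at 0.

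**Figure D1:**
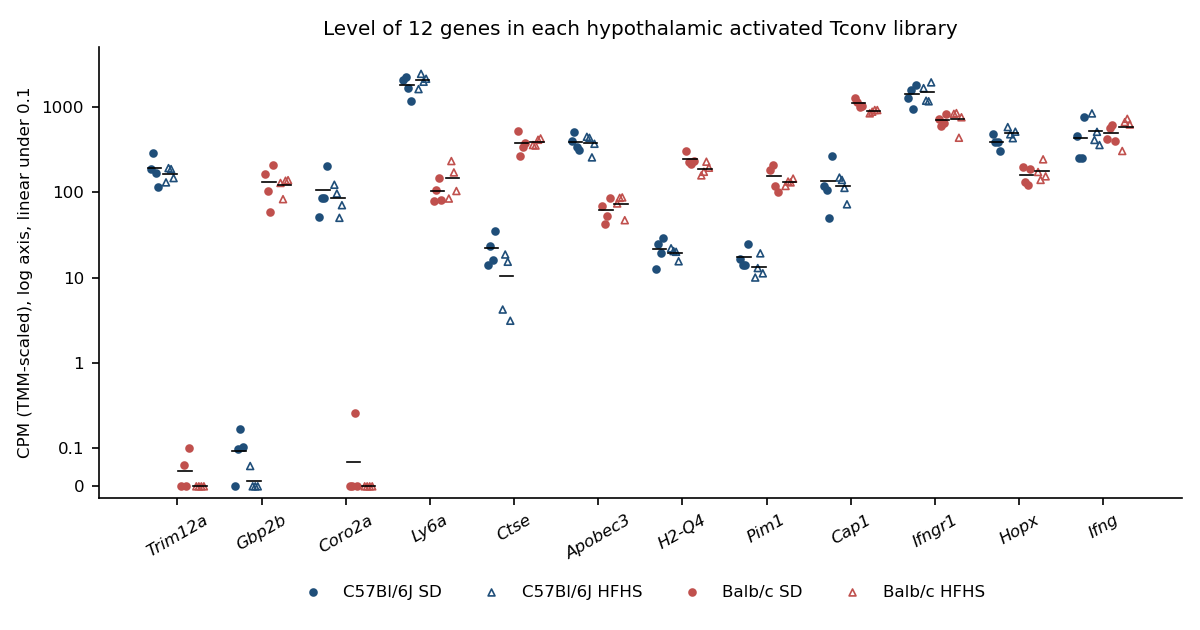
Level of 12 genes in each of the 16 hypothalamic activated Tconv libraries, in TMM-scaled CPM on a log axis that is linear under 0.1 CPM; points are libraries, horizontal bars the mean of each strain and diet group of 4. Strains were fully apart for 11 of the genes shown and overlapped for Ifng, at 303 to 721 CPM in Balb/c and 254 to 834 CPM in C57Bl/6J libraries.

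Ifi202b, a cytosolic DNA-binding protein of the Ifi200 family, was at 9.15 to 49.9 CPM in Balb/c and at 0 in all 8 C57Bl/6J libraries, at least 1171-fold higher against a floor of 3 counts over the group (edgeR, Benjamini-Hochberg adjusted p = 7.8e-05). Ifi44l, an interferon-induced gene, was at 2.94 to 15.2 CPM in Balb/c and at 0 in C57Bl/6J libraries, at least 412-fold higher on the same floor (edgeR, Benjamini-Hochberg adjusted p = 0.00149). Arntl2, a paralog of the clock gene Arntl, was at 0.202 to 20.5 CPM in Balb/c libraries and at 0 in the others, at least 542-fold higher (edgeR, Benjamini-Hochberg adjusted p = 0.00312). All 3 were at 0 across the C57Bl/6J libraries and above 0 in each Balb/c library. Atp6v0e2, a subunit of the proton pump of lysosomes, and Adgrb2, an adhesion receptor, each held 1 count over the 8 C57Bl/6J libraries, against 3037 and 2044 counts in Balb/c. The levels of these genes in Balb/c libraries were spread, for Atp6v0e2 from 2.22 to 57.9 CPM.

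Sqor, the mitochondrial enzyme that oxidizes hydrogen sulfide, was at 4.51 to 48.7 CPM in Balb/c and at 0 to 2.71 CPM in C57Bl/6J libraries. As3mt, which methylates arsenic, was at 13.9 to 41.8 CPM and at 0 to 1.7 CPM. Mtus1, a microtubule-associated protein, was at 2.52 to 52.3 CPM against 0 to 1 CPM, and Tmod4, a tropomodulin that caps actin filaments in muscle, at 4.77 to 21.7 CPM against 0 to 1.39 CPM. For each of these 4 genes a single library held nearly all C57Bl/6J counts. The fitted log2 fold change was 7.46 for Sqor and 11.87 without replicate 2 of C57Bl/6J on SD, 7.84 for Mtus1 and 11.29 without replicate 2 of C57Bl/6J on the HFHS diet. It was 7.38 for As3mt and 7.11 for Tmod4, and 9.98 and 9.71 without replicate 4 of C57Bl/6J on SD. Without these libraries the C57Bl/6J group was at 0 for Sqor and Mtus1, so that 11.87 and 11.29 are fitted values and no bounds. Without replicate 3 of Balb/c on SD, it was 8.10 for Sqor and 7.74 for Tmod4. The calls had edgeR, Benjamini-Hochberg adjusted p of 0.0273 for Tmod4, 0.0182 for Sqor, 0.0126 for Mtus1 and 0.00372 for As3mt; the call of Tmod4 was kept in 20 of 25 settings. The pseudogene Tmem181c-ps was at 42.9 to 127 CPM in Balb/c and at 0.0515 to 2.35 CPM in C57Bl/6J libraries; reads of its near-identical relatives on chromosome 17 may be split between them.

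Ctse, cathepsin E, an aspartic protease of endosomes, was at 265 to 514 CPM with a median of 366 CPM in Balb/c and at 3.12 to 34.9 CPM with a median of 15.6 CPM in C57Bl/6J libraries (25-fold, log2 fold change 4.64, SE 0.38; edgeR, Benjamini-Hochberg adjusted p = 2.6e-07). Cap1, an adenylyl cyclase-associated protein that turns over actin filaments, was at 836 to 1277 CPM with a median of 960 CPM in Balb/c and at 50.2 to 266 CPM with a median of 115 CPM in C57Bl/6J libraries (7.87-fold; edgeR, Benjamini-Hochberg adjusted p = 3.3e-07). Both of its transcript names followed this pattern, with means of 520 and 477 CPM in Balb/c and 82.9 and 43.3 CPM in C57Bl/6J libraries. Pim1, a survival kinase induced by cytokines through STAT factors, was at 99.9 to 209 CPM in Balb/c and at 10 to 24.8 CPM in C57Bl/6J libraries (9.28-fold, log2 fold change 3.21, SE 0.22; edgeR, Benjamini-Hochberg adjusted p = 2.7e-08). Each of the 8 Balb/c libraries was above each of the 8 C57Bl/6J libraries for all 3 genes.

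In the other direction, Padi2, which converts arginine to citrulline in proteins, was at 69.6 to 146 CPM in C57Bl/6J and at 4.79 to 23 CPM in Balb/c libraries (log2 fold change -3.28, SE 0.27; edgeR, Benjamini-Hochberg adjusted p = 3.3e-07). Mmp9, the matrix metalloprotease also called gelatinase B, was at 32.1 to 155 CPM in C57Bl/6J and at 0 in most Balb/c libraries, with a highest value of 7.35 CPM (log2 fold change -5.37, SE 1.19; edgeR, Benjamini-Hochberg adjusted p = 0.0186), with a log2 fold change of -6.94 without replicate 1 of Balb/c on SD. Arhgap31, a GTPase-activating protein, the lysosomal thiol reductase Ifi30 and the lncRNA 2610035D17Rik were likewise higher in C57Bl/6J without overlap, with log2 fold changes of -3.79, -2.77 and -3.46. For 2610035D17Rik the edgeR, Benjamini-Hochberg adjusted p of 0.0439 was up to 0.0843 with single libraries left out, and the call was kept in 12 of 25 settings; its log2 fold change was -4.19 without replicate 2 of Balb/c on the HFHS diet.

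Apobec3, a cytidine deaminase that restricts retroviruses, was at 255 to 506 CPM with a median of 382 CPM in C57Bl/6J and at 42.5 to 86.7 CPM with a median of 70.8 CPM in Balb/c libraries (log2 fold change -2.50, SE 0.19; edgeR, Benjamini-Hochberg adjusted p = 9.7e-08). Its 2 transcript names went opposite ways. The transcript of 2360 nt was at 255 to 506 CPM in C57Bl/6J and at 0 to 32.2 CPM in Balb/c libraries, and the transcript of 2459 nt at 0 to 16.3 CPM and at 29.3 to 69.5 CPM. The strains did not overlap for either transcript, so most of the estimated counts of Apobec3 lay on the shorter transcript in C57Bl/6J and on the longer in Balb/c libraries. Bst2, tetherin, which holds budding virus at the cell surface, was at 102 to 198 CPM in C57Bl/6J and at 17.2 to 126 CPM in Balb/c libraries (log2 fold change -1.63, SE 0.31; edgeR, Benjamini-Hochberg adjusted p = 0.00628). Apol7e, of the apolipoprotein L family, was at 350 to 652 CPM in C57Bl/6J and at 48.2 to 136 CPM in Balb/c libraries, and Gm1966, of the very large interferon-inducible GTPases, at 83.7 to 306 CPM and at 1.68 to 21 CPM. Both belong to clusters of similar genes on chromosomes 15 and 7, whose reads may be split between copies.

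Over the list of 52 interferon-stimulated genes, 50 were tested and 5 were called, beside 2.02% of all genes tested, Ifi44l and Ifit1bl2 higher in Balb/c and Bst2, Lgals3bp and Ifit1bl1 higher in C57Bl/6J, with a median log2 fold change of 0.01, the same as over all genes tested. The calls of Lgals3bp and Ifit1bl1 were kept in 13 and 12 of 25 settings, and that of Ifit1bl2 was lost with no filter on low counts. Of 20 guanylate-binding and immunity-related GTPases tested, 3 were called and all 3 were higher in Balb/c, beside 0.951% of all genes tested, with a median of 0.10 over the list. Beside Gbp2b these were Gbp10, at 116 to 214 CPM in Balb/c and 23.5 to 90 CPM in C57Bl/6J libraries (2.79-fold; edgeR, Benjamini-Hochberg adjusted p = 0.00392), and Gbp4, at 667 to 1105 CPM and 343 to 793 CPM. The call of Gbp4 (edgeR, Benjamini-Hochberg adjusted p = 0.0445) was kept in 12 of 25 settings, with an adjusted p of up to 0.106. In the cluster of Trim5 and Trim30 genes, 2 of 8 were called, both higher in C57Bl/6J, beside 1.07% of all genes tested, with a median of -0.26: Trim12a and, at 24 to 147 CPM against 8.2 to 30.5 CPM, Trim34a (edgeR, Benjamini-Hochberg adjusted p = 0.00788). Of the Schlafen family, 0 of 7 were called, with log2 fold changes from -0.30 to 0.56.

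Genes induced by interferon often hold a short binding sequence of the transcription factors STAT and IRF near their start. The letters GAAA, followed after any 2 bases by GAAA again, were searched on both strands of the 250 bases before the start of each gene in the promoter table of RefSeq (GRCm38.p6, C57Bl/6J sequence), with a promoter for 73 of the 99 genes higher in Balb/c and 81 of the 111 higher in C57Bl/6J. They were found in 6 (8.22%) and 9 (11.1%) of them, beside 290 (3.46%) of 8387 tested genes with a promoter and 3.46% of all 27025 genes of the table. The letters TTCNNNGAA, bound by STAT dimers, were found in 9.59% and 6.17% of the called genes and 7.25% of those tested. A match is no measured binding site, and Balb/c sequence was not used here. Shown are 2 genes higher in Balb/c, Gbp2b and the class I gene Gm11127, and 2 higher in C57Bl/6J, Ifi213 and Bst2, chosen after their values were seen, as the promoter of each holds the letters. They lie at chr3:142594597-142594846 (+ strand), chr17:36058372-36058621 (- strand), chr1:173599273-173599522 (- strand) and chr8:71537473-71537722 (- strand). Capitals mark this pair of GAAA or its reverse complement, in Bst2 a pair of overlapping matches.
Gbp2b: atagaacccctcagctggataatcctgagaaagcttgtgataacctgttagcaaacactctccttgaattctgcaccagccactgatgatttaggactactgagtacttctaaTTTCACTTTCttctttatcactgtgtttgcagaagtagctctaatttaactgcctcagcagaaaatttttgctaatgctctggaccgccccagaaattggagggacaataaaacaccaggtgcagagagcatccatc
Gm11127: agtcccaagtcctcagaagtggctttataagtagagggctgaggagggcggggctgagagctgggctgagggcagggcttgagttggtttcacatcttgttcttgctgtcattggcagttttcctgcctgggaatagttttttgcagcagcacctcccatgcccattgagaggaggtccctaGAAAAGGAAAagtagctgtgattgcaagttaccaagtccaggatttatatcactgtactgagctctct
Ifi213: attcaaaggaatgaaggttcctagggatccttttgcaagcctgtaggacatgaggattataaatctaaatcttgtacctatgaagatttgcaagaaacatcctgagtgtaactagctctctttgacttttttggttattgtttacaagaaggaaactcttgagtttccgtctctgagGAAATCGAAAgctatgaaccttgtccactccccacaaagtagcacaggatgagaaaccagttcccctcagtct
Bst2: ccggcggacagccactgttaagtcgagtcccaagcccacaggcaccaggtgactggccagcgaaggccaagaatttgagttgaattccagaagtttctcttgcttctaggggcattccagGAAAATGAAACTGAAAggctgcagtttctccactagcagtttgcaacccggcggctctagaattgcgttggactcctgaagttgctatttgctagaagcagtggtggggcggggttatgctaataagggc

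MHC class I was the list with the most calls. Class I molecules present peptides of the cell's own proteins to CD8 T cells and NK cells, with H2-K1 and H2-D1 as classical molecules and the H2-Q genes mostly as non-classical ones. Of 21 tested, 9 were called, beside 2.02% of all genes tested, 5 higher in Balb/c and 4 higher in C57Bl/6J, and the median log2 fold change was 0.09. H2-K1 was at 4362 to 5570 CPM in C57Bl/6J and at 2283 to 3128 CPM in Balb/c libraries (1.81-fold; edgeR, Benjamini-Hochberg adjusted p = 2e-06), and H2-D1 at 5815 to 7379 CPM and at 6335 to 9324 CPM (edgeR, Benjamini-Hochberg adjusted p = 0.303). H2-Q4 was at 157 to 306 CPM in Balb/c and at 12.5 to 29.4 CPM in C57Bl/6J libraries (10.4-fold; edgeR, Benjamini-Hochberg adjusted p = 1.3e-09). H2-Q1, H2-Q2 and H2-Q10 were higher in Balb/c as well, as was H2-Bl at 2.68 to 9.4 CPM against 0.0589 to 0.501 CPM, a gene named after its values were seen, and H2-Q7, H2-Q8 and H2-Q9 higher in C57Bl/6J. The class I genes Gm8909, at 52.1 to 97.9 CPM against 2.34 to 4.88 CPM, and Gm11127, at 17.5 to 33.7 CPM against 0.0521 to 0.334 CPM, were higher in Balb/c without overlap. DESeq2 gave no adjusted p for H2-Q2, whose log2 fold change was 5.12, and 6.49 without replicate 3 of C57Bl/6J on SD. These genes are near-identical in sequence, so that the authors' counting could split reads between them, and their single values are uncertain. In the loading of class I peptides, 2 of 14 genes were called, beside 2.02% of all genes tested. Psmb9, a catalytic subunit of the immunoproteasome, was 1.44-fold higher in Balb/c (edgeR, Benjamini-Hochberg adjusted p = 0.00371). Nlrc5, the transactivator of class I genes, was 2.13-fold higher in C57Bl/6J (edgeR, Benjamini-Hochberg adjusted p = 0.0278), a call kept in 17 of 25 settings. Nlrc5 was also the only called gene of 12 inflammasome and NLR genes, beside 2.02% of all genes tested, with a median of -0.50. Of 7 class II genes tested, H2-Eb1 alone was called, beside 2.02% of all genes tested. It was at 0 to 47.9 CPM in Balb/c and 0 to 0.609 CPM in C57Bl/6J libraries, and its call was kept in 12 of 25 settings.

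In the Ly6 family, small surface proteins held by a lipid anchor, 4 of 6 tested members were called, beside 2.02% of all genes tested, 3 of them higher in C57Bl/6J, with a median of -2.14. Ly6a, the stem cell antigen Sca-1, was at 1164 to 2424 CPM in C57Bl/6J and at 78.7 to 231 CPM in Balb/c libraries (15.5-fold; edgeR, Benjamini-Hochberg adjusted p = 2e-09). Its transcripts differed: that of 956 nt was at 1012 to 2037 CPM in C57Bl/6J and did not pass 2.27 CPM in Balb/c libraries, whereas that of 987 nt was at 32.4 to 79.5 CPM and at 45.4 to 200 CPM. Ly6e and Ly6c2 were 3.99-fold and 4.86-fold higher in C57Bl/6J, both without overlap, and Ly6c1 was 2.9-fold higher in Balb/c with overlap (edgeR, Benjamini-Hochberg adjusted p = 0.011), a call lost with limma-voom (adjusted p = 0.0651). Ly6c1 and Ly6c2 are near-identical, and their split is uncertain. In the Ifi200 family, 3 of 10 were called, beside 2.02% of all genes tested: Ifi202b higher in Balb/c, and Ifi213 (9.04-fold) and Ifi208 (2.71-fold) higher in C57Bl/6J, with a median of -0.29, which is the same with Ifi202b at its bound.

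Ifngr1, the ligand-binding chain of the interferon-gamma receptor, was at 946 to 1927 CPM with a median of 1424 CPM in C57Bl/6J and at 433 to 842 CPM with a median of 736 CPM in Balb/c libraries (log2 fold change -1.03, SE 0.16; edgeR, Benjamini-Hochberg adjusted p = 0.000924). Il21r, the receptor of interleukin-21, was at 92.8 to 233 CPM and at 34.5 to 97.4 CPM (log2 fold change -1.07, SE 0.24; edgeR, Benjamini-Hochberg adjusted p = 0.0189). These were the 2 of 25 cytokine receptors called, beside 2.02% of all genes tested, both higher in C57Bl/6J, with a median of -0.18 over the list. Of 24 Th1 and cytotoxic genes, 3 were called, all higher in C57Bl/6J, beside 1.07% of all genes tested, and the median was -0.05. Hopx, a homeodomain protein of long-lived effector T cells, was at 304 to 577 CPM in C57Bl/6J and at 122 to 242 CPM in Balb/c libraries (log2 fold change -1.39, SE 0.15; edgeR, Benjamini-Hochberg adjusted p = 6.9e-06). Nkg7, a protein of cytotoxic granules, was at 1355 to 2328 CPM and at 796 to 1703 CPM, with overlap (log2 fold change -0.66, SE 0.13; edgeR, Benjamini-Hochberg adjusted p = 0.00788). Fasl, the death ligand, was 1.49-fold higher in C57Bl/6J (edgeR, Benjamini-Hochberg adjusted p = 0.0464), a call kept in 9 of 25 settings.

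Among chemokines and cytokines, 2 of 20 were called, beside 2.02% of all genes tested. Xcl1, a chemokine for cross-presenting dendritic cells, was at 129 to 308 CPM in C57Bl/6J and at 83.4 to 146 CPM in Balb/c libraries (1.92-fold; edgeR, Benjamini-Hochberg adjusted p = 0.00552). Ltb, lymphotoxin beta, a signal for lymphoid tissue, was at 569 to 1323 CPM in Balb/c and at 374 to 629 CPM in C57Bl/6J libraries (1.72-fold; edgeR, Benjamini-Hochberg adjusted p = 0.0152). Ltb was also the only called gene of 23 tested for the naive state, egress and residency, a share near that of all genes tested. Of 13 lectin receptors of the NK gene complex, 2 were called, both higher in C57Bl/6J, beside 1.07% of all genes tested, with a median of -1.95. Klrk1, the activating receptor NKG2D, was at 69.4 to 256 CPM in C57Bl/6J and at 7.19 to 64.2 CPM in Balb/c libraries (5.41-fold; edgeR, Benjamini-Hochberg adjusted p = 0.00334). Klra9, of the Ly49 receptors, had 1 count over the Balb/c libraries and was spread from 0.0535 to 171 CPM over the C57Bl/6J libraries. Both are receptors of NK and CD8 T cells as well, and fewer cells of a type and less RNA per cell cannot be told apart in these bulk samples.

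Of 23 genes of the T-cell receptor complex and its proximal signalling, 2 were called, both higher in Balb/c, beside 0.951% of all genes tested. They were Ptpn6, the phosphatase SHP-1, at 1.47-fold (edgeR, Benjamini-Hochberg adjusted p = 0.0225) and Cd5 at 1.45-fold (edgeR, Benjamini-Hochberg adjusted p = 0.0466). Both dampen receptor signals, and the median over the list was -0.03. Ptpn6 was at 176 to 254 CPM in Balb/c and at 109 to 178 CPM in C57Bl/6J libraries, and Cd5 at 275 to 460 CPM and at 189 to 335 CPM, each with overlap. The call of Ptpn6 was kept in 21 of 25 alternative settings and left-out libraries, with an adjusted p of up to 0.0606, and that of Cd5 in 9, with up to 0.104. Junb, of the AP-1 factors, was the only 1 of 25 immediate early genes called, beside 2.02% of all genes tested. It was at 734 to 1685 CPM in C57Bl/6J and 529 to 1007 CPM in Balb/c libraries (1.64-fold, edgeR, Benjamini-Hochberg adjusted p = 0.0439). This call was kept in 13 of 25 settings. Of 20 genes of glycolysis, Pgam1 alone was called, beside 2.02% of all genes tested. It was 1.77-fold higher in Balb/c (edgeR, Benjamini-Hochberg adjusted p = 0.0204). Of 89 cell cycle genes, 2 were called, a share near the 2.02% of all genes tested: Mcm6, a subunit of the replicative helicase, was higher in C57Bl/6J and Cenpa, the histone of centromeres, higher in Balb/c, at 2.04-fold and 2.9-fold; these calls were kept in 21 and 19 of 25 settings, and that of Pgam1 in 23. The median of the cell cycle list was 0.57, beside 0.01 over all genes tested.

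Ifng was at 303 to 721 CPM with a median of 584 CPM in Balb/c and at 254 to 834 CPM with a median of 430 CPM in C57Bl/6J libraries (log2 fold change 0.17, SE 0.24; edgeR, Benjamini-Hochberg adjusted p = 0.964). Tbx21, the Th1 factor T-bet, Cxcr6, a chemokine receptor of resident T cells, Ccl5 and the Th2 factor Gata3 had log2 fold changes of -0.18, -0.25, 0.12 and -0.10, and their strains overlapped. Il4 was at 17.3 to 43 CPM in Balb/c and at 4.68 to 23.5 CPM in C57Bl/6J libraries (log2 fold change 1.34, SE 0.42; edgeR, Benjamini-Hochberg adjusted p = 0.139), which DESeq2 alone among the alternatives called. Il5, Il13 and Il17a were not tested, as fewer than 4 libraries had more than 10 counts. Il5 and Il13 did not pass 5.55 CPM in any library, and Il17a was at 0 in all Balb/c libraries and above 0 in 3 C57Bl/6J libraries, at 52.6, 9.64 and 0.0589 CPM. Il10 was at 0 in most libraries of both strains. Pdcd1 (PD-1), Tigit and Cd226 had log2 fold changes of -0.89, -1.29 and -0.40, and Ccr7 and S1pr1, which guide T cells to and out of lymph nodes, of 1.08 and 0.52, with edgeR, Benjamini-Hochberg adjusted p between 0.357 for Ccr7 and 0.604 for Pdcd1. Lists of Th2 (13 tested), Th17 (12), Tfh (9), chemokine receptor (14), checkpoint (26), integrin (11), SLAM (8) and antioxidant genes (28) held 0 called genes, where 2.02% of all genes tested were called, so that few calls or none in lists of this size are near that share. Nnt, the mitochondrial transhydrogenase, had 0 counts in all 16 libraries. As reads were quantified on C57Bl/6J transcripts, whether its RNA was absent from Balb/c cells was not tested.

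Called genes were spread over all 19 autosomes but were densest on chromosome 17, with 28 of 592 genes tested (4.73%), 18 of them higher in Balb/c. The other chromosomes held between 0.951% (chromosome 10) and 2.82% (chromosome 1). In windows of 2 Mb on GRCm38, 15 of 1044 windows held at least 3 called genes. These windows held 27.5% of the 207 called genes with a position in both annotations used and 4.26% of the genes tested. As the windows were picked by their called genes, the first share is the larger by construction, and clustering was not tested. The window with the most lay in the MHC, chr17:34000001-36000000, where 10 of 82 genes were called, 9 of them higher in Balb/c, and the next window, chr17:36000001-38000000, held 4 of 21, all higher in Balb/c. These counts leave out H2-Q8 and H2-Q9, both higher in C57Bl/6J, whose position differs between the annotations. They also leave out a pair of called class I genes that start just before the window, H2-K1 at 33996012, higher in C57Bl/6J, and H2-K2 at 33974659, higher in Balb/c (log2 fold change 1.28), the latter named after its values were seen. The Ly6 cluster at chr15:74000001-76000000 held 4 of 20, the Ifi200 cluster at chr1:172000001-174000000 held 3 of 20, and the Trim cluster at chr7:104000001-106000000 held 3 of 19. In chr7:106000001-108000000, where Gm1966 lies, 3 of only 5 genes tested were called. Another 116 called genes were alone in their window.

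**Figure D2:**
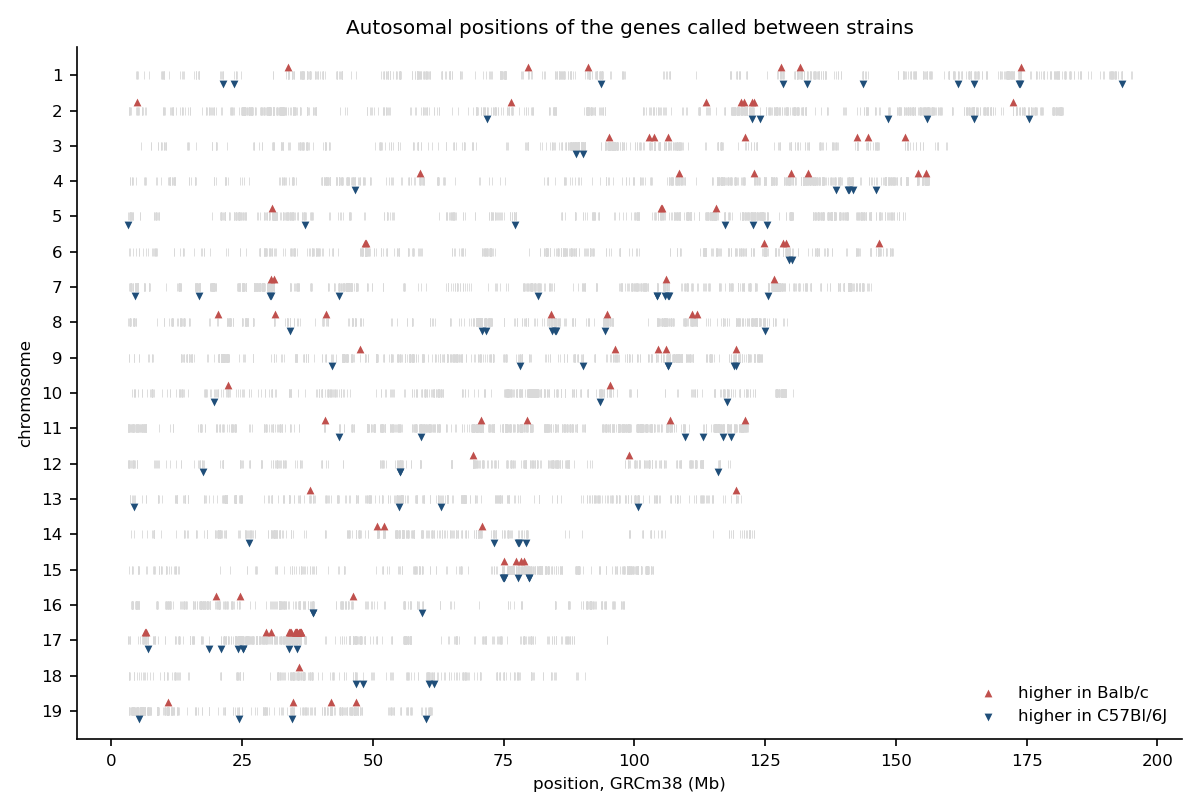
Positions on GRCm38 of the 207 autosomal genes called between strains that both annotations place (triangles: up, red, higher in Balb/c; down, blue, higher in C57Bl/6J) beside all genes tested (grey ticks); x axis in Mb, 1 row per chromosome. By number of called genes, not by their share of the genes tested, the largest run lies between 34 and 38 Mb of chromosome 17.

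The difference between strains was also fitted within each diet. On SD, 39 of 9562 genes were called (0.408%), and on the HFHS diet 59 of 9485 (0.622%; edgeR, Benjamini-Hochberg), where DESeq2 called 152 and 367. Of these, 30 were called on both diets, 76.9% of those on SD and 50.8% of those on the HFHS diet. The interaction of strain and diet called 0 of 10408 genes (0%) with edgeR, where 475 had an unadjusted p under 0.05; limma-voom called 0 and DESeq2 157. Ly6a had log2 fold changes of -4.12 on SD and -3.80 on the HFHS diet, Ctse of 4.07 and 5.21, and Ifngr1 of -1.01 and -1.07, and the adjusted p of the interaction was 1 for each (edgeR, Benjamini-Hochberg). Leaving out single libraries gave between 21 and 43 genes on SD and between 29 and 47 on the HFHS diet. The count on SD was 25 without replicate 2 of C57Bl/6J, and 23, 23, 21 and 24 without replicates 1 to 4 of Balb/c; that on the HFHS diet was 36, 35, 38 and 29 without replicates 1 to 4 of Balb/c.

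Activated Tconv of the rest brain, the part of the brain left without the hypothalamus, were fitted in the same way in 13 libraries, 6 Balb/c and 7 C57Bl/6J. There, 2759 of 11740 genes were called (23.5%), against 2.02% in the hypothalamus. The spread between libraries, as edgeR's common coefficient of variation, was 102% in the hypothalamus and 83.7% in the rest brain. Of the 210 genes called in the hypothalamus, 206 were tested in the rest brain, and 142 were called there in the same direction, 67.6% of the hypothalamic and 5.15% of the rest brain genes. By their labels, 9 pools gave libraries of both tissues, so that the tissues are not independent. The pool label of hypothalamic replicate 3 of C57Bl/6J on SD has no match in the rest brain and may be mistyped, so a further shared pool may be missed. A test of the difference itself, strain by tissue in all 29 libraries, called 1277 of 12258 genes (10.4%; edgeR, Benjamini-Hochberg), and 56 of the 210 were among them.

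Trim12a, Gbp2b and Ly6a did not pass that test, and their strains differed in the same direction in the rest brain. There, Trim12a was at 129 to 230 CPM in C57Bl/6J and at 0 to 0.0646 CPM in Balb/c libraries, Gbp2b was at 35.3 to 121 CPM in Balb/c and at 0 to 0.0748 CPM in C57Bl/6J libraries, and Ly6a had a log2 fold change of -3.25. As3mt was not near 0 in C57Bl/6J there, at 0.0518 to 15.9 CPM with a median of 3.9 CPM. Its log2 fold change was 1.38 (edgeR, Benjamini-Hochberg adjusted p = 0.287). Sqor reached 16.6 CPM in C57Bl/6J, with a median of 0.357 CPM, and was called (log2 fold change 4.71; edgeR, Benjamini-Hochberg adjusted p = 0.0433). In 4 genes the strains differed in opposite directions in the tissues, each past the test in both and in the interaction, some of them narrowly: Cd5, Ptpn6, Dok2 and Cybc1, of which the latter pair was chosen after the values were seen. Dok2, an adaptor that restrains receptor signals, was at 339 to 446 CPM in Balb/c and 173 to 237 CPM in C57Bl/6J libraries of the hypothalamus, and at 53.1 to 196 CPM and 153 to 219 CPM in the rest brain (interaction log2 fold change -1.54; edgeR, Benjamini-Hochberg adjusted p = 0.000357). Cd5 was at 275 to 460 CPM in hypothalamic and 84.8 to 209 CPM in rest brain libraries of Balb/c, and at 189 to 335 CPM and 238 to 331 CPM in C57Bl/6J (interaction log2 fold change -1.48; edgeR, Benjamini-Hochberg adjusted p = 0.000122). In single tissues, the edgeR, Benjamini-Hochberg adjusted p was 0.0466 for Cd5 (log2 fold change 0.54) and 0.0485 for Cybc1 (0.84) in the hypothalamus, and 0.049 for Dok2 (-0.61) in the rest brain. The CPM of the tissues come from separate TMM scalings, whereas the test of strain by tissue scaled all libraries together. On these separate scales, the levels of all 4 genes in Balb/c were lower in every rest brain library than in every hypothalamic library. Their ranges in C57Bl/6J overlapped between the tissues. Lower levels in every rest brain library of Balb/c were not particular to these 4 genes, as H2-D1, Cap1, Pim1 and H2-K1 had them too. Ptpn6 had log2 fold changes of 0.55 in the hypothalamus and -0.78 in the rest brain (interaction, edgeR, Benjamini-Hochberg adjusted p = 0.00109), and Cybc1, a chaperone of the phagocyte oxidase, of 0.84 and -0.91 (interaction, edgeR, Benjamini-Hochberg adjusted p = 0.000608). With the pool as a random block in limma-voom, the adjusted p of these 4 genes were between 5.9e-05 and 0.0025.

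**Figure D3:**
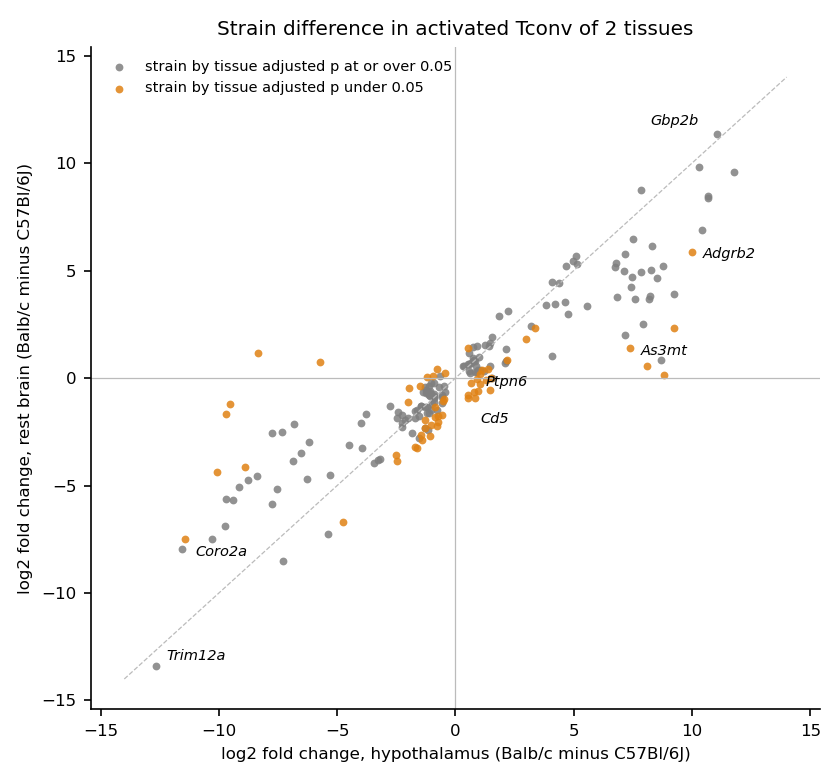
Log2 fold change between strains, Balb/c minus C57Bl/6J, in activated Tconv of the hypothalamus (x axis) and of the rest brain (y axis), for the 206 genes called in the hypothalamus and tested in both; the dashed line marks equal values. Orange points, such as Cd5 (0.54 and -0.91), passed the test of strain by tissue.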

How the data were processed

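RNA of sorted activated Tconv was sequenced by the study, and the deposited files hold estimated counts per transcript, which the authors made with Salmon on mm10. Counts were summed per gene, rounded and scaled by TMM. Genes that passed 10 counts in 4 or more libraries (3 in the rest brain) were fitted with edgeR 4.0.16 (quasi-likelihood F test, strain and diet as terms; R 4.3.3), with Benjamini-Hochberg adjustment over all genes tested and calls at an adjusted p under 0.05. X and Y genes were left out after scaling. DESeq2 1.42.0, limma 3.58.1, other scalings and filters, and each library left out were alternatives. Named were, in each direction, the 10 largest called changes without overlap and at least 10 CPM, the 6 next smallest p, up to 4 called members of each of 27 lists, and a fixed set of genes whatever their values; some genes this rule takes are not described. The members and lists were chosen with earlier results of these data known. Each SE is the absolute log2 fold change divided by the square root of its quasi-likelihood F statistic. It was not estimated directly, and is rough for genes near 0 in a strain. Intervals and floors cover counting error only.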

Additional observations from a re-analysis of the deposited data

Results flagged for a closer look

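Among the named genes described with a mean of at least 1 CPM, 281 groups of 4 libraries were examined, and in 29 (10.3%) the highest or lowest library stood far from the other 3, where chance gives about 1 in 20 groups if values are normally distributed, which was not tested here. Groups with 3 libraries at 0 are counted whatever the value of the other. In Balb/c on the HFHS diet, Atp6v0e2 at 39.8 CPM in replicate 2 (others 13.2 to 15.2 CPM), Adgrb2 at 1.53 CPM in replicate 3 (others 16.9 to 20 CPM), Gm1966 at 18.6 CPM in replicate 2 (others 2.66 to 5.31 CPM) and Apol7e at 48.2 CPM in replicate 1 (others 77.8 to 78.7 CPM) were apart. In Balb/c on the HFHS diet, further, Lgals3bp at 96.2 CPM in replicate 4 (others 110 to 113 CPM), Ifit1bl1 at 170 CPM in replicate 2 (others 89.3 to 103 CPM), Mcm6 at 197 CPM in replicate 2 (others 67.5 to 74.1 CPM) and Il10 at 20 CPM in replicate 1 (others 0 to 0 CPM) were apart. In Balb/c on SD, Mmp9 at 7.35 CPM in replicate 1 (others 0 to 0 CPM), Gm1966 at 21 CPM in replicate 1 (others 1.68 to 4.71 CPM), Padi2 at 23 CPM in replicate 4 (others 9.52 to 10.9 CPM) and Ltb at 1258 CPM in replicate 3 (others 656 to 731 CPM) were apart. In Balb/c on SD, further, H2-Q1 at 57.7 CPM in replicate 1 (others 37.2 to 40.7 CPM), H2-Q8 at 116 CPM in replicate 4 (others 79.6 to 84.3 CPM), H2-Eb1 at 47.9 CPM in replicate 1 (others 5.7 to 11.5 CPM) and Pgam1 at 184 CPM in replicate 2 (others 236 to 244 CPM) were apart. In Balb/c on SD, further, Il5 at 5.55 CPM in replicate 1 (others 0 to 0.0554 CPM) and Il10 at 5.15 CPM in replicate 2 (others 0 to 0 CPM) were apart. In C57Bl/6J on SD, Ifi30 at 102 CPM in replicate 3 (others 30 to 36 CPM), H2-Q2 at 7.45 CPM in replicate 3 (others 0.235 to 0.345 CPM), Bst2 at 134 CPM in replicate 4 (others 192 to 198 CPM) and Il10 at 4.79 CPM in replicate 4 (others 0 to 0 CPM) were apart. In C57Bl/6J on SD, further, Il17a at 9.64 CPM in replicate 3 (others 0 to 0.0589 CPM) and Tigit at 45.9 CPM in replicate 2 (others 21.2 to 25.1 CPM) were apart. In C57Bl/6J on the HFHS diet, Ltb at 374 CPM in replicate 4 (others 511 to 521 CPM), Klra9 at 105 CPM in replicate 2 (others 0.0535 to 9.06 CPM), Il10 at 43.2 CPM in replicate 1 (others 0 to 0.223 CPM) and Il17a at 52.6 CPM in replicate 3 (others 0 to 0 CPM) were apart. In C57Bl/6J on the HFHS diet, further, Ccr7 at 94.5 CPM in replicate 2 (others 17.5 to 24.6 CPM) was apart. Replicate 1 of Balb/c on SD accounted for 5 of them and replicate 2 of Balb/c on the HFHS diet for 4.

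By the test of strain by tissue in edgeR, the strain difference itself differed between the tissues for the 22 genes listed here and for H2-K2. For H2-K2 the log2 fold change was -1.38 (edgeR, Benjamini-Hochberg adjusted p = 0.0018). All values are log2 fold changes of the rest brain minus the hypothalamus. The value was -5.42 for Adgrb2, -5.43 for As3mt, -1.10 for H2-Q4, -1.23 for Cap1, 4.12 for Coro2a and -1.96 for Gm1966. It was -1.08 for Apobec3, -0.70 for H2-Q9, -1.43 for Apol7e, -1.37 for Ptpn6, -1.48 for Cd5 and 0.97 for Xcl1. It was -1.64 for Il21r, -0.53 for H2-K1, -1.35 for H2-Q8, -1.65 for Bst2, -1.07 for Lgals3bp and -0.90 for Gbp4. It was -1.27 for Junb, -0.87 for H2-D1, -1.78 for Cybc1 and -1.54 for Dok2. This fit does not take into account that pools gave libraries of both tissues. With the pool as a random block in limma-voom, these genes did not pass: the Benjamini-Hochberg adjusted p was 0.352 for Adgrb2 (log2 fold change -1.92), 0.0878 for H2-Q4 (log2 fold change -1.05), 0.104 for Coro2a (log2 fold change 2.92), 0.508 for Gm1966 (log2 fold change -1.57). It was 0.0957 for Apobec3 (log2 fold change -1.06), 0.123 for Il21r (log2 fold change -1.64), 0.105 for Bst2 (log2 fold change -1.69) and 0.064 for Lgals3bp (log2 fold change -1.06). The others of the 22 genes passed both fits, and the value of H2-K2 with the block is not given here. Nkg7 passed with the block alone, at a log2 fold change of 0.77 (limma-voom, Benjamini-Hochberg adjusted p = 0.0345). Its edgeR, Benjamini-Hochberg adjusted p was 0.0595, and its log2 fold change between strains in the rest brain was 0.09.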

How the results depend on the processing

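Between 9 alternatives of processing and each of the 16 libraries left out, 126 of the 210 genes were called in every setting, and 0 of the 210 changed sign. With DESeq2, 433 genes were called, 192 higher in Balb/c and 241 higher in C57Bl/6J; 152 on SD (78 and 74), 367 on the HFHS diet (169 and 198) and 157 in the interaction of strain and diet. The other alternatives gave 192 to 280 genes. With single libraries left out, 165 to 243 genes were called (79 to 114 and 85 to 129), 21 to 43 on SD (7 to 19 and 12 to 24), 29 to 47 on the HFHS diet (6 to 25 and 21 to 28), 0 to 1 in the interaction of strain and diet, 2342 to 2795 in the rest brain and 1013 to 1535 for strain by tissue. Of the 65 called genes taken by the naming rule, 48 were called in every setting. The sign turned with limma-voom for Tbx21 (0.09), Gata3 (0.05) and Il10 (0.01), and without replicate 4 of C57Bl/6J on SD for Gata3 (-0.20 to 0.17 over the libraries left out), none of them called; the cause was not tested. Strain and sex cannot be told apart, and levels under the floor of 3 counts over 8 libraries were not detectable at this depth.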
